A study of Mus musculus with 54 samples.

Results

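Cmpd60 inhibits the histone deacetylases HDAC1 and HDAC2, and its effect on RNA levels was compared between the kidney and the brain of aged mice. The comparison used 23 of the 54 libraries of the study, namely all kidney and brain libraries of the 20-month mice, chosen by the tissue and treatment in their titles. Of the 54232 genes listed for each library, the 19083 that reached 3 or more counts in no fewer than 3 libraries of each tissue were tested. For every gene, the response in a tissue is the log2 fold change of Cmpd60 over vehicle. The quantity under test is the response in kidney minus the response in brain, called the difference in response below, so that a positive value means a response that was more upward in kidney.

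All mice were males of the BL6 background, aged about 20 months, housed singly on regular chow and injected intraperitoneally once a day for 14 days. The Cmpd60 groups received 22.5 mg/kg, and the vehicle groups received the same solvent of DMSO, PEG400 and saline without the compound. There were 6 kidney libraries with Cmpd60, 5 with vehicle, and 6 brain libraries of each kind, all made from poly(A) RNA with a strand-specific kit. Each library is named here by the number in its title. The labels do not tell which kidney and brain came from the same mouse, or which part of the brain was taken.

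In all 11 kidney libraries, the treatment field of the labels gives the opposite of the title and the source name. The titles were followed, and if the field were right, the sign of every kidney response below would change. The difference in response would then be minus the sum of the responses given here, so that the genes called below for the mean response and those called for the difference would change places. Library numbers run in order within each group, so the order of handling and the treatment cannot be told apart. No label names separate animals for the replicates, so the p-values measure the spread between these libraries.

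Histone deacetylases remove acetyl groups from lysines of histone tails, and HDAC1 and HDAC2 do so as the catalytic subunits of the Sin3, NuRD, CoREST and MiDAC corepressor complexes. Inhibiting them raises histone acetylation at many promoters and enhancers, and RNA of some genes rises and of others falls. The kidney is rich in proximal tubule cells with high transport and detoxification activity, while neurons and glia of the brain use HDAC1 and HDAC2 to silence genes during differentiation and in synaptic plasticity.

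Between 25164965 and 57430113 reads were counted on genes per library. The brain libraries with Cmpd60 were deeper than those with vehicle, with a median of 38855600 against 28188600 counts (two-sided exact permutation test, p = 0.00649), and the kidney groups did not differ in depth beyond their spread (exact p = 1). The tissue labels held, since Umod, the urine protein of the thick ascending limb, had 0 counts in all 12 brain libraries and 3321 to 5857 CPM in kidney (CPM being counts scaled to a common library size and for composition), while the synaptic gene Snap25 had at most 1 count in any kidney library. In 1 marker sum each, 7 libraries lay far from the rest of their group, and 3 of them were chosen, after seeing the data, to be left out together. Kidney vehicle library 45 had a lymphocyte marker sum of 2134 CPM against 255 to 734 in the others, kidney Cmpd60 library 55 a loop of Henle sum of 4999.6 CPM against 7768 to 8811, and brain Cmpd60 library 35 a pituitary sum of 628 CPM against at most 17.0. The counts of genes called are given below also without libraries 35, 45 and 55. The others were kidney vehicle libraries 47 and 48 and brain vehicle libraries 28 and 30, which like every library were left out singly. In bulk tissue, fewer cells of a type and less RNA per cell cannot be told apart.

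The responses in kidney and brain differed in 74 genes at an adjusted p below 0.05 in a joint fit of all 23 libraries by edgeR's quasi-likelihood test, which is 0.388% of the genes tested. An unadjusted p below 0.05 was reached by 2397 genes (12.6%). The difference was positive in 27 of the 74 genes (0.141% of those tested) and negative in 47 (0.246%). Scaling moved this split, to 41 positive and 35 negative of 76 genes with composition factors computed within each tissue, and to 28 and 27 of 55 genes with DESeq2's size factors. The median difference over all genes was -0.03 on the log2 scale, a value that the scaling sets near 0.

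In 68 of the 74 genes, the absolute response was larger in kidney than in brain. Over all genes with at least 1 CPM in each tissue, the median absolute response was also larger in kidney, at 0.125 against 0.0767. The spread between replicates was larger in kidney too, as given below, so the count of 68 does not measure a stronger response there. A response in kidney alone, at an unadjusted p below 0.05 in that tissue's own fit, was found in 54 genes, in brain alone in 3, in opposite directions in 15 and in the same direction with unequal size in 2. The kidney groups did not overlap in 50 of the 74 genes, against 2.23% of all genes tested, and the brain groups in 6, against 1.18%. These non-overlaps rest on the same values as the difference itself and are given as a description.

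The spread between replicates was larger in kidney, with a biological coefficient of variation of 0.235 against 0.103 in brain. The joint fit estimates 1 spread per gene for both tissues, with a common value of 0.166 over the genes. When each tissue was fitted on its own and the difference was tested from both estimates and their own errors, 19 of the 74 genes passed at an adjusted p below 0.05, 14 with a positive and 5 with a negative difference. In 17 of the 19 the kidney groups did not overlap, and 16 passed in kidney alone. Of the 55 genes that passed in the joint fit only, 42 had a negative difference, and 14 had a mean below 1 CPM in kidney.

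The count of 74 depended on single libraries. The share of 0.388% was 0.157% without brain vehicle library 27 and 0.77% without kidney Cmpd60 library 52, and 19 of the 23 leave-outs moved it by over 1.5 times, all but those of brain vehicle library 29, kidney Cmpd60 libraries 53 and 55 and kidney vehicle library 45. Without libraries 35, 45 and 55 it was 53, with 37 genes shared. The genes described first are the 19 that passed in both fits, a choice that rests on the spread of each tissue. It does not select for calls that hold over the leave-outs. Of the 19 genes, 8 passed in every leave-out and every other setting, namely Rundc3a, Lipo1, Aldh1b1, Cbr1, Gsta4, Pla2g7, Asrgl1 and Fbxo44. The 11 other settings include the separate fits, which all 19 genes passed because they were chosen by them. Over these 11 settings, the calls of Mroh7, Cbr2 and Slc2a13 held in 10, and those of Gsto1, Gstp1 and Arl4a in 9. Those of Pbld1, Sv2a and Tspan9 held in 8, and those of Alcam and Reep6 in 7. Pla2g7, Asrgl1, Fbxo44, Slc2a13, Pbld1, Sv2a, Arl4a, Reep6 and Tspan9 fall outside the naming rule and were chosen after their values were seen.

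**Figure D1:**
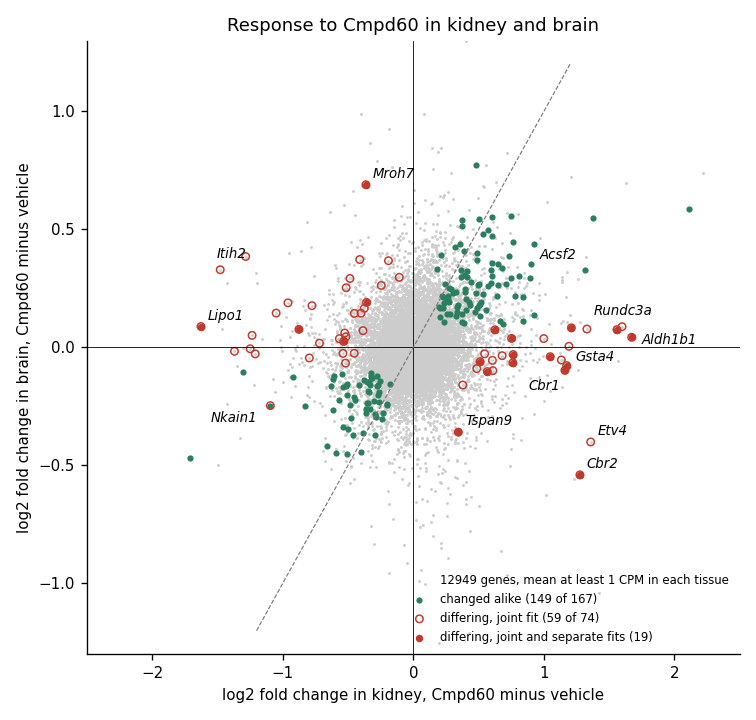
Each point is 1 of the 12949 genes with a mean of at least 1 CPM in each tissue. The horizontal axis is the log2 fold change of Cmpd60 over vehicle in kidney and the vertical axis the same in brain, and 4 genes lie outside the axes. Red circles mark 59 genes whose responses differed, filled for the 19 that passed in both fits, and green points the genes that responded alike. The dashed line marks equal responses. Most genes that differed spread along the kidney axis near 0 in brain.

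Rundc3a (ENSMUSG00000006575), which encodes an effector of the small GTPase Rap2 known from neurons, had the smallest p-value of all genes. In kidney it was at 6.01, 6.56, 7.29, 7.90 and 8.31 CPM in the vehicle libraries, and at 16.7 to 25.0 CPM with a median of 21.4 in the Cmpd60 libraries. In brain it was at 236 to 287 CPM (median 269.5) with vehicle and 264 to 308 CPM (median 282) with Cmpd60. The kidney groups did not overlap and the brain groups did, although the brain level was far higher in both. The log2 fold change was 1.56 in kidney (SE 0.13, adjusted p = 8.88e-05 from edgeR) and 0.08 in brain (SE 0.05, adjusted p = 0.511). The difference in response was 1.45 (SE 0.13, 95% interval 1.19 to 1.72, adjusted p = 4.95e-07 in the joint fit and 2.50e-05 with separate fits), and it remained between 1.36 and 1.48 over all other settings.

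Cbr1, Cbr2, Aldh1b1, Gsta4, Gsto1 and Gstp1, which encode carbonyl reductases, an aldehyde dehydrogenase and glutathione S-transferases, are described together because of their known reactions, a grouping made after the 19 genes were seen. Cbr1 (ENSMUSG00000051483), a carbonyl reductase that uses NADPH, was at 55.0, 55.2, 61.4, 74.9 and 85.4 CPM in kidney with vehicle and at 109 to 194 CPM (median 132) with Cmpd60. In brain, Cbr1 was at 45.8 to 55.2 CPM (median 50.9) with vehicle and 43.1 to 52.3 CPM (median 48.6) with Cmpd60, so that only the kidney groups were apart. Its log2 fold change was 1.16 in kidney (SE 0.17, adjusted p = 0.00728 from edgeR) and -0.10 in brain (SE 0.06), a difference of 1.22 (SE 0.18, adjusted p = 0.00263). Cbr2 (ENSMUSG00000025150), a related mitochondrial carbonyl reductase, was at 2.37, 2.37, 3.19, 3.42 and 3.67 CPM in kidney with vehicle and at 6.14 to 8.62 CPM (median 7.17) with Cmpd60. Its brain level was near 1 CPM, at 0.640 to 2.62 CPM with vehicle and 0.618 to 1.09 CPM with Cmpd60. The difference in response of Cbr2 was 1.78 (SE 0.35, adjusted p = 0.0231 from edgeR), and the call was lost without kidney vehicle library 47 (adjusted p = 0.0517).

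Aldh1b1 (ENSMUSG00000035561), a mitochondrial aldehyde dehydrogenase, was at 3.13, 3.17, 3.38, 3.63 and 3.75 CPM in kidney with vehicle and at 6.57 to 18.2 CPM (median 10.01) with Cmpd60. The brain levels of Aldh1b1 were 6.20 to 8.15 CPM (median 6.84) with vehicle and 5.73 to 8.48 CPM (median 7.78) with Cmpd60. All 6 treated kidneys were above all 5 control kidneys, and the treated brains spanned the control brains. The log2 fold change was 1.67 in kidney (SE 0.22, adjusted p = 0.00352 from edgeR) and 0.04 in brain (SE 0.10), a difference of 1.60 (SE 0.25, 95% interval 1.08 to 2.11, adjusted p = 0.00263).

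Gsta4 (ENSMUSG00000032348), a glutathione S-transferase known for conjugating the lipid peroxidation product 4-hydroxynonenal, was at similar levels in both tissues of the vehicle mice. In kidney it was at 23.5, 26.997, 28.4, 28.7 and 32.4 CPM with vehicle and at 46.8 to 83.0 CPM (median 61.3) with Cmpd60. The brain levels of Gsta4 were 25.4 to 35.6 CPM (median 30.4) with vehicle and 23.4 to 35.6 CPM (median 29.1) with Cmpd60. The kidney groups were apart, and the brain groups covered nearly the same range. The log2 fold change was 1.17 in kidney (SE 0.15, adjusted p = 0.00352 from edgeR) and -0.08 in brain (SE 0.09), a difference of 1.22 (SE 0.19, adjusted p = 0.00281).

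Gsto1 (ENSMUSG00000025068) and Gstp1 (ENSMUSG00000060803), of the omega and pi classes of the same family, rose less. Gsto1 was at 30.7 to 40.1 CPM in kidney with vehicle and 43.5 to 51.0 CPM with Cmpd60, and in brain at 17.9 to 21.2 CPM and 16.9 to 21.3 CPM. Its difference in response was 0.54 (SE 0.11, adjusted p = 0.0289 from edgeR). Gstp1 was at 90.1 to 129.6 CPM in kidney with vehicle and 136 to 246 CPM with Cmpd60, and in brain at 56.2 to 76.0 CPM and 53.9 to 78.1 CPM. Its difference was 0.76 (SE 0.17, adjusted p = 0.0434 from edgeR), and since Gstp2 is a near copy, the reads of Gstp1 are uncertain. The calls were sensitive to single libraries, that of Gsto1 holding in 16 and that of Gstp1 in 7 of 23 leave-outs, with adjusted p-values up to 0.0590 and 0.0880.

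**Figure D2:**
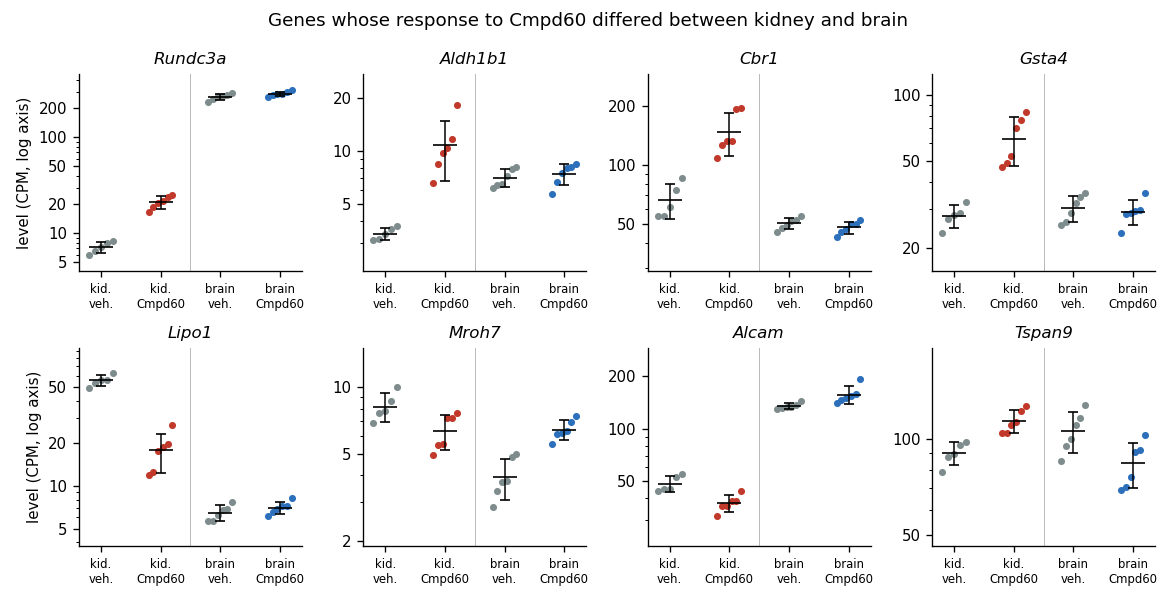
Points are single libraries, with CPM on log axes, and lines are the mean and SD of each group of genes whose responses differed between kidney and brain. In the panels of Rundc3a, Aldh1b1, Cbr1 and Gsta4 the treated kidneys lie above all control kidneys and in that of Lipo1 below them, while the brain groups overlap.

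Lipo1 (ENSMUSG00000024766), of the acid lipase family, was at 49.5, 53.6, 56.2, 56.3 and 62.5 CPM in kidney with vehicle and at 11.9 to 26.996 CPM (median 18.2) with Cmpd60. In brain it was at 5.63 to 7.71 CPM (median 6.50) with vehicle and 6.15 to 8.15 CPM (median 7.04) with Cmpd60. Each treated kidney was thus below each control kidney, with no such shift in brain. The log2 fold change was -1.63 in kidney (SE 0.17, adjusted p = 0.000539 from edgeR) and 0.09 in brain (SE 0.10), a difference of -1.75 (SE 0.20, 95% interval -2.17 to -1.33, adjusted p = 7.21e-05). Lipo1 has close paralogs in the genome, so that reads may be split among them.

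Pla2g7 (ENSMUSG00000023913), the secreted acetylhydrolase that inactivates platelet-activating factor, was at 23.0, 25.5, 26.9, 28.1 and 30.8 CPM in kidney with vehicle and at 39.0 to 49.5 CPM (median 45.8) with Cmpd60. In brain its median was 136 CPM in both groups, with ranges of 129 to 159 and 115 to 161 CPM. The difference in response was 0.79 (SE 0.12, adjusted p = 0.00263 from edgeR), made up of 0.76 in kidney and -0.06 in brain. Reep6 (ENSMUSG00000035504), which shapes endoplasmic reticulum membranes, was at 84.7 to 105 CPM in kidney with vehicle and 137 to 302 CPM with Cmpd60. It was at 7.05 to 9.75 CPM and 6.31 to 10.6 CPM in brain. Its difference was 1.09 (SE 0.23, adjusted p = 0.0387 from edgeR), a call that held in 6 of 23 leave-outs, with adjusted p-values up to 0.0759.

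Sv2a (ENSMUSG00000038486), a glycoprotein of synaptic vesicles, was at 17.1, 18.9, 20.2, 20.6 and 21.7 CPM in kidney with vehicle and at 25.0 to 41.2 CPM (median 32.8) with Cmpd60, without overlap. In brain it was at 574 to 630.3 CPM with vehicle and 565 to 680.0 CPM with Cmpd60, where the groups overlapped. The difference in response was 0.68 (SE 0.13, adjusted p = 0.0231 from edgeR). Slc2a13 (ENSMUSG00000036298), the proton-coupled myo-inositol transporter, was at 10.3, 10.6, 10.7, 12.4 and 14.0 CPM in kidney with vehicle and at 5.11 to 7.00 CPM (median 6.45) with Cmpd60. Its brain level was 126 to 150.04 CPM with vehicle and 119 to 196 CPM with Cmpd60. Slc2a13 fell in kidney by 0.88 on the log2 scale (SE 0.14, adjusted p = 0.0127 from edgeR), and its difference was -0.99 (SE 0.15, adjusted p = 0.00263). The defining neuron markers were near 0 in kidney, where their summed level was 0.519 to 1.45 CPM with Cmpd60 and 0.938 to 1.77 CPM with vehicle (exact p = 0.212).

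In the remaining genes with a larger change in kidney, the size was mostly smaller. Pbld1 (ENSMUSG00000020072), of the phenazine biosynthesis-like family, was at 21.2 to 26.2 CPM in kidney with vehicle and 38.4 to 53.8 CPM with Cmpd60, and its difference was 1.06 (adjusted p = 0.0156 from edgeR) with a brain level near 1 CPM. Asrgl1 (ENSMUSG00000024654), an asparaginase, was at 16.0 to 17.6 CPM and 22.2 to 29.3 CPM in kidney, a difference of 0.63 (adjusted p = 0.00263 from edgeR). Fbxo44 (ENSMUSG00000029001), an F-box subunit of ubiquitin ligases, was at 18.2 to 22.2 CPM and 28.4 to 33.8 CPM, a difference of 0.51 (adjusted p = 0.0121 from edgeR). Arl4a (ENSMUSG00000047446), an ARF-like GTPase, fell from 25.4 to 29.9 CPM with vehicle to 17.4 to 22.9 CPM with Cmpd60, a difference of -0.59 (adjusted p = 0.0231 from edgeR), with the call lost without brain vehicle library 30 (adjusted p = 0.0501). The treated kidneys did not overlap with the control kidneys in any of these 4 genes.

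In 3 of the 19 genes, the sign of the response was opposite in the tissues, with an unadjusted p below 0.05 in each. Mroh7 (ENSMUSG00000047502), a gene of the maestro heat-like repeat family, was at 6.85, 7.61, 7.78, 8.62 and 10.004 CPM in kidney with vehicle and at 4.93 to 7.64 CPM (median 6.37) with Cmpd60. In brain, Mroh7 was at 2.85 to 4.97 CPM (median 3.74) with vehicle and 5.52 to 7.38 CPM (median 6.26) with Cmpd60. Mroh7 was the only one of the 19 genes in which the brain groups did not overlap. The log2 fold change was -0.36 in kidney (adjusted p = 0.399 from edgeR) and 0.69 in brain (adjusted p = 0.0655), and neither passed alone, while the difference of -1.09 did (SE 0.21, 95% interval -1.51 to -0.66, adjusted p = 0.0217).

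Alcam (ENSMUSG00000022636), a cell adhesion molecule of the immunoglobulin family, was at 43.9, 45.1, 45.2, 52.8 and 54.8 CPM in kidney with vehicle and at 31.8 to 44.1 CPM (median 37.4) with Cmpd60. Brain levels of Alcam were 130.0 to 144.6 CPM (median 134) with vehicle and 139.6 to 193 CPM (median 152) with Cmpd60. The ranges overlapped slightly in each tissue. The difference was -0.58 (SE 0.11, adjusted p = 0.0231 from edgeR), and the call was lost without kidney Cmpd60 library 51 or kidney vehicle library 47 or 48 (adjusted p of 0.0602, 0.0502 and 0.0711). The call of Alcam held in 7 of the 11 other settings. Tspan9 (ENSMUSG00000030352), a tetraspanin, was at 78.9, 87.6, 89.7, 95.5 and 97.6 CPM in kidney with vehicle and at 104 to 126 CPM (median 112) with Cmpd60. In brain Tspan9 went the other way, at 85.3 to 127 CPM (median 105) with vehicle and 69.4 to 103 CPM (median 83.6) with Cmpd60. Its difference was 0.67 (SE 0.14, adjusted p = 0.0403 from edgeR) and was called in 11 of 23 leave-outs, with adjusted p-values up to 0.0829.

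Genes that passed in the joint fit only are less secure. Etv4 (ENSMUSG00000017724), an ETS family transcription factor, was at 0.414 to 1.03 CPM in kidney with vehicle and at 1.01 to 4.001 CPM with Cmpd60, the highest being library 55. In brain Etv4 was at 8.20 to 10.1 CPM with vehicle and 6.10 to 7.65 CPM with Cmpd60, without overlap. Its difference was 1.74 (SE 0.34, adjusted p = 0.0231 in the joint fit from edgeR and 0.103 with separate fits). Itih2 (ENSMUSG00000037254), a heavy chain of the inter-alpha-trypsin inhibitors, was at 3.79 to 8.24 CPM in kidney with vehicle and 0.519 to 3.16 CPM with Cmpd60. In brain Itih2 was at 4.08 to 5.87 CPM and 4.74 to 7.79 CPM. Its difference was -1.84 (SE 0.34, adjusted p = 0.0179 from edgeR in the joint fit and 0.0506 with separate fits).

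The joint fit also called lower responses in kidney for Col19a1, a collagen chain (difference -1.72), Dnah11, an axonemal dynein (-1.41), Slc35f1, of the nucleotide-sugar transporter-like family (-1.31), and Bcat1, the cytosolic branched-chain aminotransferase (-1.28). Bcat1 was at 33.2 to 72.2 CPM in kidney with vehicle and 8.98 to 28.3 CPM with Cmpd60, without overlap, and its brain median was 137 CPM in both groups. A higher response in kidney was called for Rasl10b, a Ras-like GTPase (difference 1.24). Fam13c and the Integrator subunit Ints7 had opposite signs in the tissues, each with a difference of -0.58. With separate fits the adjusted p-values of these 7 genes were 0.0702 to 0.217.

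Of the 14 joint-fit calls with a kidney mean below 1 CPM, 13 were lower with Cmpd60 in kidney. The genes named next were chosen after their values were seen. The adherens junction gene Ctnna2 had 0 to 21 counts (median 7.5) in the treated kidneys and 31 to 105 counts (median 43) in the control kidneys, against at least 3175 counts in any brain library. Grin3a, a subunit of NMDA receptors, had 4 to 20 counts in treated and 15 to 54 counts in control kidneys, and the neuronal adhesion gene Cntnap5a 0 to 17 and 11 to 92 counts. These counts are out of at least 25164965 per library, and their source was not tested.

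**Figure D3:**
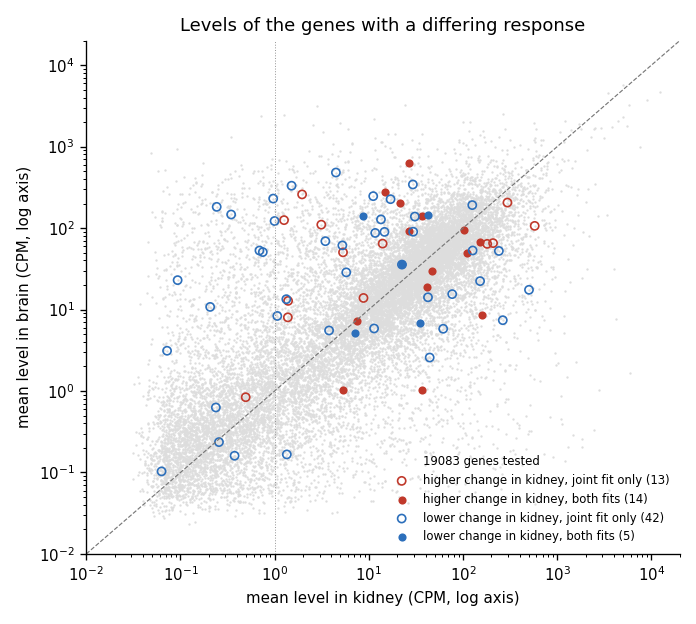
Each grey point is 1 of the 19083 genes tested, with its mean level in kidney on the horizontal and in brain on the vertical axis, both in CPM on log axes. Filled points mark the 19 genes called in both fits and open circles the 55 called in the joint fit only, most of which lie above the dashed line of equal levels, 14 of them to the left of the dotted line at 1 CPM in kidney.

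Genes that responded alike were defined by an adjusted p below 0.05 for the mean of both responses together with the same sign and an unadjusted p below 0.05 in each tissue. The mean response passed in 316 genes (1.66%), 196 up (1.03%) and 120 down (0.629%), or in 292 without libraries 35, 45 and 55, and 167 genes (0.875%) met the whole rule, 103 up and 64 down. For 89 of the 167 (0.466% of all genes tested), the 95% interval of the difference in response lay inside 1.5-fold either way. In 45 of the 167 the difference had an unadjusted p below 0.05, against 12.6% of all genes tested, so alike means the same direction and not always the same size. The brain response was the larger in 23 of the 167, and the kidney response in the others. The median response was 0.49 in kidney and 0.27 in brain among the raised genes, and -0.41 and -0.23 among the lowered. Because the spread between replicates was larger in kidney, a gene needed a larger response there to reach an unadjusted p below 0.05. The rule itself thus favours genes with the larger response in kidney, and these values are a description of the genes it selected. The count was 71 without kidney vehicle library 47 and 211 without kidney Cmpd60 library 52, and 156 without libraries 35, 45 and 55, with 113 genes shared.

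Without regard to the mean, 306 genes (1.6%) had an unadjusted p below 0.05 in both tissues with the same sign and 81 (0.424%) with opposite signs. Over all 19083 genes, the log2 fold changes in kidney and brain had a Pearson correlation of 0.0613, and 53.2% of genes had the same sign. Among genes with at least 1 CPM in each tissue the correlation was 0.118, and with at least 10 CPM it was 0.107. Genes are not independent replicates, so these values are descriptions.

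Among the raised genes were enzymes of fatty acid and drug metabolism. Acsf2 (ENSMUSG00000076435), a mitochondrial acyl-CoA synthetase, was at 24.3, 32.9, 35.8, 36.1 and 37.8 CPM in kidney with vehicle and at 56.4 to 70.5 CPM (median 59.6) with Cmpd60. In brain it was at 15.0 to 16.8 CPM (median 15.4) with vehicle and 19.1 to 22.4 CPM (median 20.1) with Cmpd60, so that the groups were apart in both tissues. It was the only gene called in each tissue on its own, with log2 fold changes of 0.90 in kidney (SE 0.11, adjusted p = 0.00245 from edgeR) and 0.35 in brain (SE 0.06, adjusted p = 0.0475). The brain call held in 12 of 23 leave-outs, with adjusted p-values up to 0.101. The mean response of Acsf2 was 0.64 (SE 0.06, adjusted p = 2.97e-06), and its difference of 0.51 missed the threshold (adjusted p = 0.0656).

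Gstm1 (ENSMUSG00000058135), a mu class glutathione S-transferase, was at 404, 427, 434, 480.2 and 499 CPM in kidney with vehicle and at 523 to 838 CPM (median 654) with Cmpd60. The brain levels of Gstm1 were 129 to 160.0 CPM (median 149.9) with vehicle and 157 to 200.05 CPM (median 178) with Cmpd60. The kidney groups were apart and the brain groups overlapped slightly. Its mean response was 0.42 (SE 0.07, adjusted p = 0.00302 from edgeR), with a difference of 0.28 (95% interval -0.01 to 0.57). Cyp2d22 (ENSMUSG00000061740), a cytochrome P450, was at 33.1 to 46.7 CPM and 55.1 to 90.7 CPM in kidney, and at 30.1 to 36.9 CPM and 36.4 to 46.1 CPM in brain. Its mean response was 0.53 (adjusted p = 0.00182 from edgeR), with a difference of 0.42 (95% interval 0.09 to 0.75).

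Lama5 (ENSMUSG00000015647), a laminin chain of basement membranes, had nearly equal responses in the tissues, 0.39 in kidney and 0.41 in brain. It was at 114, 126, 132, 153 and 155.2 CPM in kidney with vehicle and at 153 to 199 CPM (median 175) with Cmpd60. In brain, Lama5 was at 15.3 to 22.7 CPM (median 18.4) with vehicle and 22.1 to 28.5 CPM (median 24.7) with Cmpd60, and the ranges overlapped at their ends in each tissue. The mean response was 0.41 (SE 0.06, adjusted p = 0.00245 from edgeR), and the difference of -0.06 had a 95% interval of -0.32 to 0.21. Spns2, a sphingosine-1-phosphate transporter, and Hemk1, a methyltransferase of release factors, had mean responses of 0.37 and 0.46 (adjusted p = 0.00535 and 0.0118 from edgeR). Their differences were 0.29 (95% interval 0.02 to 0.56) and 0.26 (-0.12 to 0.65).

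Among the lowered genes, Bmi1 (ENSMUSG00000026739), a subunit of Polycomb repressive complex PRC1, was at 61.0, 67.5, 67.9, 72.7 and 76.1 CPM in kidney with vehicle and at 50.6 to 59.1 CPM (median 53.9) with Cmpd60. In brain, Bmi1 was at 54.5 to 57.8 CPM (median 55.7) with vehicle and 45.3 to 53.9 CPM (median 49.8) with Cmpd60. Every treated library was below every control library in both tissues. Such a separation in the same direction in both tissues, upward or downward, was found in 5 of the 167 genes, which are 0.0262% of all genes tested. The mean response was -0.26 (SE 0.04, adjusted p = 0.00302 from edgeR), with a difference of -0.20 (95% interval -0.37 to -0.02).

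Slc20a2, a sodium-dependent phosphate transporter, and Spr, the sepiapterin reductase of tetrahydrobiopterin synthesis, fell by nearly the same amount in the tissues. Slc20a2 had log2 fold changes of -0.26 in kidney and -0.23 in brain and a mean response of -0.24 (adjusted p = 0.0141 from edgeR), with a difference of -0.06 (95% interval -0.26 to 0.14). Spr had -0.29 and -0.28, a mean of -0.28 (adjusted p = 0.0141 from edgeR) and a difference of -0.05 (95% interval -0.28 to 0.19). Ankrd29, an ankyrin repeat gene, and the growth factor receptor Fgfr3 had mean responses of -0.35 and -0.32 (adjusted p = 0.0159 and 0.0267 from edgeR). The call of Fgfr3 held in 18 of 23 leave-outs, with adjusted p-values up to 0.0702. Nkain1 (ENSMUSG00000078532), which interacts with the sodium pump, met the rule and also differed in size, with -1.09 in kidney, -0.25 in brain and a difference of -0.88 (adjusted p = 0.0434 from edgeR in the joint fit and 0.157 with separate fits).

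**Figure D4:**
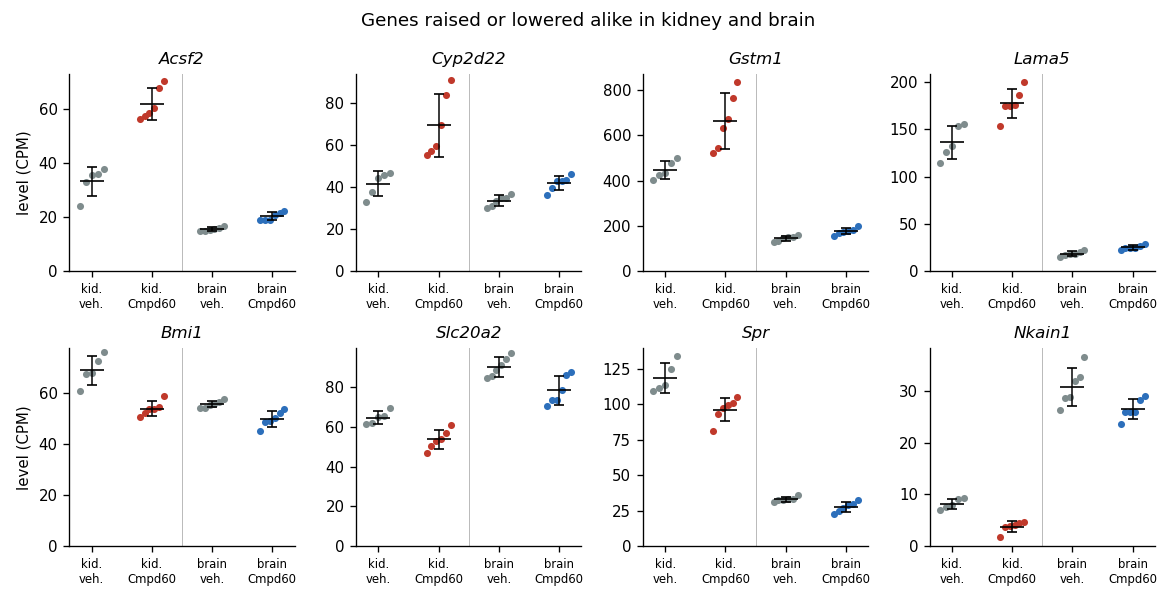
Points are single libraries, with CPM on the vertical axes from 0, and lines are the mean and SD of each group of genes that responded alike. Acsf2 is higher and Bmi1 lower in every treated library of each tissue, and in the panel of Lama5 the ranges overlap at their ends.

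Promoters were read for the members with an entry in RefSeq (GRCm38.p6, 250 bases before to 50 after the start), 54 of the 74 differing and 121 of the 167 alike genes. The core of the antioxidant response element, TGACNNNGC on either strand, was held by 9.26% of the differing and 23.1% of the alike promoters, against 16.8% of all 12126 promoters of genes tested. The core of the hypoxia response element, ACGTG, was held by 20.4%, 31.4% and 27.8%. Among the 16 promoters of genes called in both fits, 2 held TGACNNNGC, those of Pla2g7 and Tspan9, and the promoters of Cbr1 and Gsta4 were not among them. One promoter of each kind is shown, Pla2g7 for the genes that differed and Bmi1 for those that fell alike, with the TGACNNNGC match in capitals, on the reverse strand in Pla2g7 and on the forward strand in Bmi1. A match is a description of letters and not a binding site.
Pla2g7, chr17:43568201-43568500, plus strand: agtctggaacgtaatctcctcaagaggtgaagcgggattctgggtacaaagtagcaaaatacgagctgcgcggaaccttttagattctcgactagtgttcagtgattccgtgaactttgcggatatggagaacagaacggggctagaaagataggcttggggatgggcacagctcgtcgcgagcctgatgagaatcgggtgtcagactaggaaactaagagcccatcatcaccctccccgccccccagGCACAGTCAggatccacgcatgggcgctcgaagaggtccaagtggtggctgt
Bmi1, chr2:18676768-18677067, plus strand: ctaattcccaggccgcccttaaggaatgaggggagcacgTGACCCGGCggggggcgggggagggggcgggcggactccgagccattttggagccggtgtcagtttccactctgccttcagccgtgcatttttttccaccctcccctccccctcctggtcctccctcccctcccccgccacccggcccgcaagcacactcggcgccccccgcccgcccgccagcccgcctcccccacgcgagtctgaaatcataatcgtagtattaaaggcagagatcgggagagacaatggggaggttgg

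In the tests within each tissue, 50 genes passed in kidney (0.262%), 35 up (0.183%) and 15 down (0.0786%). In brain 9 passed (0.0472%), 6 up (0.0314%) and 3 down (0.0157%). Of the 50 kidney genes, 20 also passed the test of the difference, 32 had the same sign in brain, and 7 had the same sign with an unadjusted p below 0.05 there, which 15.3% of all genes reached in either direction. Their median absolute log2 fold change was 0.77 in kidney and 0.10 in brain. Over all genes with at least 1 CPM in each tissue, it was 0.125 and 0.0767. The 50 genes were selected by the kidney values, so a larger median in kidney follows from the selection. Of the 9 brain genes, 0 passed the test of the difference, 8 had the same sign in kidney and 4 an unadjusted p below 0.05 there (11.6% of all genes). The median absolute log2 fold changes of the 9 were 0.46 in brain and 0.48 in kidney. The kidney values include uncertain ones at low levels, -0.93 for Rab26 (SE 0.99, mean 0.0595 CPM) and -0.72 for Hcn4 (SE 0.62, mean 0.666 CPM). The brain count was 1 without brain Cmpd60 library 34 and 432 without brain vehicle library 29, the kidney count 17 without kidney vehicle library 47 and 112 without kidney Cmpd60 library 52. Without libraries 35, 45 and 55 they were 29 in kidney and 1 in brain.

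Fabp7 (ENSMUSG00000019874), the fatty acid binding protein of radial glia and astrocytes, was at 22.3 to 46.1 CPM (median 33.1) in brain with vehicle and 12.5 to 20.2 CPM (median 18.3) with Cmpd60, without overlap. In kidney Fabp7 was at 2.73 to 10.7 CPM with vehicle and 2.73 to 11.8 CPM with Cmpd60. Its log2 fold change was -0.91 in brain (SE 0.14, adjusted p = 0.0303 from edgeR) and -0.04 in kidney (SE 0.35), and the difference of 0.84 had an adjusted p of 0.382, so that an unlike response was not shown. Rab26, a GTPase of secretory vesicles, was at 19.4 to 22.2 CPM in brain with vehicle and 26.0 to 32.8 CPM with Cmpd60 (log2 fold change 0.52, adjusted p = 0.00281 from edgeR), and was at most 0.170 CPM in any kidney library.

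Lgals3bp, a secreted galectin-binding glycoprotein induced by interferon, and Arhgef25, a guanine nucleotide exchange factor, were raised in brain (log2 fold changes of 0.48 and 0.32, both adjusted p = 0.0303 from edgeR). In kidney their log2 fold changes were 0.54 and 0.41, and the differences were 0.02 (95% interval -0.44 to 0.48) and 0.05 (-0.30 to 0.41). The complement gene C4b rose in brain by 0.46, and the pacemaker channel Hcn4 and the glycogen phosphatase subunit Ppp1r3e fell there by 0.42 and 0.43 on the log2 scale. Their kidney responses were 0.09, -0.72 and -0.12, none of which passed. The brain calls of Fabp7, Lgals3bp and Hcn4 held in 16 of 23 leave-outs each, that of Arhgef25 in 17, of C4b in 12 and of Ppp1r3e in 10, with adjusted p-values up to 0.120.

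Hdac1 and Hdac2, the targets of the compound, were not called in either tissue. Hdac1 was at 55.0, 56.2, 58.1, 58.9 and 62.3 CPM in kidney with vehicle and at 59.3 to 82.6 CPM (median 64.1) with Cmpd60, the highest being library 55. Its log2 fold change was 0.20 in kidney (adjusted p = 0.381 from edgeR) and 0.03 in brain, with a difference of 0.15 (95% interval -0.10 to 0.39). For Hdac2 the log2 fold change was 0.04 in each tissue, with a difference of -0.04 (95% interval -0.26 to 0.19). Of the 34 genes of the HDAC1 and HDAC2 corepressor complexes, 0 passed the test of the difference, against 0.388% of all genes tested. An unadjusted p below 0.05 was reached by 1 of them (Mbd2, the methyl-CpG binding subunit of NuRD), or 2.94%, against 12.6% of all genes tested. The median responses of the complexes were 0.02 in kidney and 0.01 in brain.

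The detoxification lists had higher median responses in kidney than in brain. The glutathione S-transferases had 22 members tested, and 3 passed the test of the difference, all upward (Gsta4, Gsto1 and Gstp1, above), as did 0.141% of all genes tested. Of the 22, 16 were higher with Cmpd60 in kidney and 15 in brain (9757 and 9506 of all 19083 genes), with median responses of 0.23 and 0.08. The difference was positive in 12 of the 22, as in 8805 of all 19083 genes. Its median over the list, 0.10, was 0.01 without brain Cmpd60 library 37 and 0.16 without brain Cmpd60 library 38. Their summed level was 2193 to 3201 CPM in the treated kidneys against 1649 to 2005 CPM in the control kidneys, without overlap, and 487 to 574 CPM against 441 to 552 CPM in brain. Over all genes tested the median responses were 0.01 and 0.00.

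The other targets of NRF2, the transcription factor that induces antioxidant enzymes, were 20 genes, of which 1 (Cbr1) passed the test of the difference. An unadjusted p below 0.05 was reached by 9 upward and 1 downward, where 4.62% and 7.94% of all genes tested did so. In kidney 18 of the 20 were higher with Cmpd60 and in brain 5, with median responses of 0.26 and -0.05. The median difference of 0.29 lay between 0.24 and 0.32 under every other setting. Single members that did not pass had differences of 1.27 (Cbr3, a carbonyl reductase), 0.79 (Nqo1, a quinone reductase), 0.48 (G6pdx, the first enzyme of the pentose phosphate pathway) and 0.37 (Pgd, the next NADPH producer of that pathway), and the member with a downward difference was Me1, malic enzyme, at -0.43. These 5 were named after their values were seen.

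The 17 genes of the integrated stress response, the program induced by the factor ATF4 under amino acid shortage and other stress, had 0 calls in the test of the difference and median responses of 0.35 in kidney and 0.02 in brain, 15 being higher in kidney and 9 in brain. The difference reached an unadjusted p below 0.05 upward in 4 of them and downward in 1 (4.62% and 7.94% of all genes tested). Atf5, a transcription factor of this program, was at 13.2, 13.7, 14.8, 19.2 and 20.4 CPM in kidney with vehicle and at 24.4 to 29.7 CPM (median 25.4) with Cmpd60, without overlap, and overlapped in brain. It rose in kidney by a log2 fold change of 0.69 (adjusted p = 0.0324 from edgeR), and its difference of 0.59 missed the threshold (adjusted p = 0.0634). The kidney call of Atf5 held in 16 of 23 leave-outs, with adjusted p-values up to 0.120. Chac1, a glutathione-degrading enzyme of the same program, had a difference of 1.01 (adjusted p = 0.0986 from edgeR).

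The protein synthesis and respiration lists had 0 calls each in the test of the difference. Of 76 cytosolic ribosomal protein genes, 71 were higher in kidney and 12 in brain, with median responses of 0.25 and -0.08. The difference reached an unadjusted p below 0.05 upward in 9 (11.8%) and downward in 0, where 4.62% and 7.94% of all genes tested did so. The median difference of the ribosomal genes, 0.29, was 0.15 without kidney Cmpd60 library 55. Of 74 nuclear subunits of oxidative phosphorylation, 32 were lower in brain at an unadjusted p below 0.05 (7.64% of all genes tested), with medians of -0.04 in kidney and -0.14 in brain, and the sign of the median difference (0.06) turned to -0.06 without libraries 35, 45 and 55. The 12 genes of the mitochondrial genome had medians of -0.23 in kidney and 0.05 in brain. Their median difference, -0.33, was -0.08 without kidney vehicle library 47.

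Genes known to respond to HDAC inhibitors in cultured cells were 15, with 0 calls, 14 higher in kidney and 10 in brain, and medians of 0.35 and 0.07. Their median difference, 0.21, was 0.10 without kidney Cmpd60 library 55. At an unadjusted p below 0.05 the difference was upward in 4 and downward in 1 (4.62% and 7.94% of all genes tested). The metallothioneins Mt1 and Mt2, which bind zinc and copper, were the members with the smallest p for the difference. Mt2 was at 19.0, 19.6, 24.7, 33.1 and 41.9 CPM in kidney with vehicle and at 17.3 to 123 CPM (median 58.1) with Cmpd60, the groups overlapping, and its difference was 1.04 (adjusted p = 0.285 from edgeR). Mt1 had a difference of 0.86 (adjusted p = 0.288 from edgeR).

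The 22 interferon-stimulated genes were higher with Cmpd60 in 19 cases in kidney and 21 in brain, with medians of 0.35 and 0.22, 0 called as different, 1 at an unadjusted p below 0.05 (12.6% of all genes tested) and 3 called as alike (0.875%). The 3 were Oas2, Ifit3b and Lgals3bp, with mean responses of 0.97, 0.47 and 0.52 (adjusted p = 0.0403, 0.0449 and 0.0205 from edgeR). Of 19 circadian clock genes, 13 were higher in kidney and 16 in brain, with medians of 0.17 and 0.16. The medians of 13 neuronal immediate early genes were 0.32 and 0.30, those of 20 targets of the hypoxia factor HIF were 0.16 and 0.11, and those of 27 collagen and matrix genes were 0.21 and 0.05. At an unadjusted p below 0.05, the difference was upward in 4 and downward in 1 of the HIF targets. It was downward in 2 immediate early genes (Nr4a2 at -0.89 and Fosb at -1.12), and upward in 1 collagen and matrix gene. No clock gene reached that p, which 4.62% of all genes tested reached upward and 7.94% downward. Within these lists, the alike rule was met by Eno1, a glycolytic enzyme, P4ha1, a collagen prolyl hydroxylase, and the collagen VI chains Col6a1 and Col6a2, with mean responses of 0.33, 0.24, 0.55 and 0.54. The difference of Eno1 was 0.35 (95% interval 0.08 to 0.61).

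Among the lists with 0 calls, 4 had at least 4 members with a downward difference at an unadjusted p below 0.05, which 7.94% of all genes tested reached downward and 4.62% upward. Of 23 genes of cholesterol synthesis, 6 were higher in kidney and 8 in brain, with medians of -0.19 and -0.03, and the difference reached an unadjusted p below 0.05 upward in 1 and downward in 6. Idi1, the isopentenyl diphosphate isomerase, was at 32.6, 34.9, 40.4, 43.3 and 43.7 CPM in kidney with vehicle and at 12.5 to 33.3 CPM (median 22.7) with Cmpd60, with a difference of -0.78 (adjusted p = 0.0986 from edgeR). Nsdhl, a sterol dehydrogenase of the pathway, had a difference of -0.41 (adjusted p = 0.143 from edgeR). Of 12 glucocorticoid targets, 0 had an upward and 5 a downward difference at that p, with Klf9 at -0.29 and Dusp1 at -0.64 (adjusted p = 0.196 and 0.223 from edgeR). The counts were 1 upward and 5 downward of 17 genes repressed by REST and 2 and 4 of 24 organic ion transporters, whose medians follow.

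**Figure D5:**
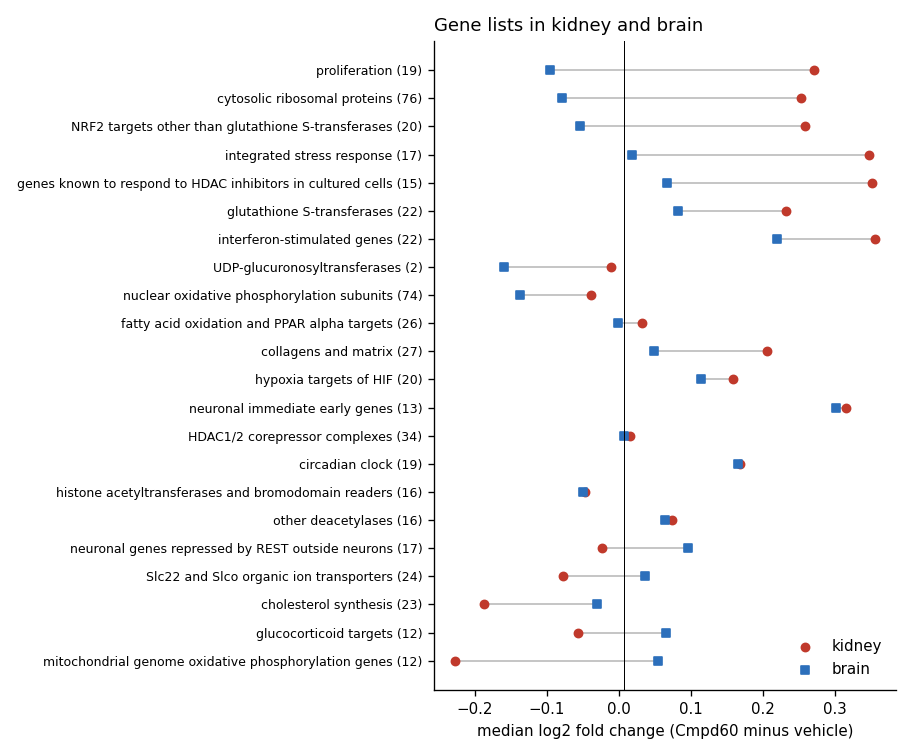
For each gene list, the median log2 fold change of Cmpd60 over vehicle in kidney and in brain. The NRF2, integrated stress response, ribosomal, proliferation, HDAC inhibitor response and mitochondrial genome lists lie apart between the tissues, the last lower in kidney. The circadian and immediate early lists lie together. The vertical line is the kidney median over all genes tested, 0.01.

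The remaining lists showed no call. The medians in kidney and brain were 0.07 and 0.06 for 16 other deacetylases, -0.05 and -0.05 for 16 histone acetyltransferases and bromodomain readers, 0.03 and 0.00 for 26 genes of fatty acid oxidation, -0.08 and 0.04 for 24 organic ion transporters, 0.27 and -0.10 for 19 proliferation genes, and -0.01 and -0.16 for the 2 UDP-glucuronosyltransferases tested. Among the proliferation genes, the difference reached an unadjusted p below 0.05 upward in 3 and downward in 0 (4.62% and 7.94% of all genes tested). The median difference of the proliferation list, 0.31, was 0.13 without kidney Cmpd60 library 55. For 17 neuronal genes repressed by REST outside neurons, the medians were -0.02 and 0.10, and the sign of their median difference depended on the filter on low counts. Among these, Scn2a and Sez6 had differences of -1.90 and -2.81 (adjusted p = 0.0558 and 0.0634 from edgeR) at kidney levels below 1 CPM.

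Cell type marker sums were compared between treated and control libraries within each tissue. In kidney the ependyma list was higher with Cmpd60, at 66.98 to 133 CPM against 44.7 to 63.95 CPM (two-sided exact permutation test, p = 0.00649, adjusted p = 0.0779 over the lists). Rarres2, a chemokine-like gene that other cells also express, carried it, and the defining marker Tmem212 was at 0. The astrocyte list, whose genes Aldh1l1 and Aqp4 the kidney expresses, was at 745 to 1175 CPM against 581 to 840 CPM (exact p = 0.0303), and the choroid plexus list at 572 to 1141 CPM against 1015 to 1237 CPM (exact p = 0.0433). In brain the endothelium list was at 214 to 307 CPM against 185 to 218 CPM, and the podocyte list at 176 to 256 CPM against 164 to 188 CPM through Podxl and Synpo (exact p = 0.00649 each, adjusted p = 0.0779). The brain neuron list was at 5627 to 7166 CPM against 5232 to 6040.0 CPM (exact p = 0.0216). After adjustment over the lists, none of these sums passed. The part of these shifts in the genes above was not tested.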

How the data were processed

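RNA was measured by poly(A) RNA sequencing in 11 kidney and 12 brain libraries. The authors deposited whole-number counts of reads per gene, not normalized; per the labels, reads were trimmed with Trimmomatic 0.32, aligned with HISAT2 2.1.0 and counted with HTSeq 0.11.0, with FastQC for quality, and the genome build is not given in the sources used here. The counter's summary lines, 16.6% to 21.9% of reads, were left out of library sizes and tests. A floor of 3 counts equals 0.0522 to 0.119 CPM, and covers counting error only.

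Counts were analysed in R 4.3.3 with edgeR 4.0.16 (TMM factors, quasi-likelihood F-tests, Benjamini-Hochberg adjustment over all 19083 genes, two-sided), with one mean per tissue and treatment. CPM were TMM-scaled. Each tissue was also fitted alone, and the difference tested from both fits with Satterthwaite degrees of freedom. In simulated counts with the spread of each tissue, the joint fit made more false calls than the separate fits, so genes passing in both are described first. Marker sums were compared by exact permutation tests, whose smallest p is 0.00216 for 6 against 5 and 6 against 6 libraries. No libraries had identical counts, and the counts of every pair within a group differed by more than sampling noise (chi-square per degree of freedom at least 5.01).

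Named genes were those with a symbol and at least 1 CPM in each tissue, namely the 6 largest differences in each direction and the 6 smallest p-values with opposite signs among genes called, the 6 raised and 6 lowered alike genes of smallest p, up to 4 called or otherwise 1 or 2 leading members of each list, the compound's targets and genes called in brain. The members and gene lists were chosen with earlier results of these data known. Older symbols were updated, and 681 of 688 list entries matched. Alternatives were limma-voom (3.58.1) with and without a weight per tissue, DESeq2 1.42.0, other scalings and filters, thinned counts, heart libraries in the fit, and each library left out. RefSeq gave the promoters.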

Additional observations from a re-analysis of the deposited data

Results flagged for a closer look

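In 440 groups of 5 or 6 libraries, formed by 89 genes, the marker sums and the library totals, 32 had a lowest or highest library far from the others, where chance gives about 1 in 20. All values here are CPM.

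Kidney Cmpd60 library 55 was the highest of its group for Mcm5, a replication helicase subunit, at 24.4 against 6.53 to 11.6 in the others, for Etv4 at 4.001, Hdac1 at 82.6 and Arl4a at 22.9, and the lowest for the loop of Henle sum at 4999.6. Kidney Cmpd60 library 50 was highest for the mitochondrial gene mt-Nd1 at 7392 against 4443 to 5301, and for Scn2a at 0.382. Library 53 was highest for Klf9 at 202, and library 54 for Rab26 and Sez6, both at 0.123.

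Kidney vehicle library 45 was highest for the lymphocyte sum at 2134, library 47 for the cerebellar neuron sum at 0.187 and lowest for Hadha, a subunit of mitochondrial fatty acid oxidation, at 309. Library 48 was highest for the adipocyte sum at 154.7 against 39.6 to 58.1. Library 49 was highest for Dnah11 at 2.42 and the ribosomal gene Rpsa at 468, and lowest for the interferon-stimulated gene Ifi44 at 10.8 against 18.5 to 20.1.

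Brain Cmpd60 library 35 was highest for the pituitary sum at 628, library 33 for Alcam at 193, Clock at 147 and Scn2a at 479, library 34 for Pbld1 at 1.65, and library 36 lowest for Rasl10b at 241. Brain vehicle library 28 was highest for Cbr2 at 2.62, Hdac8 at 17.0 and the collecting duct sum at 6.12. Library 29 was highest for Birc5 at 1.39, Col19a1 at 17.9, Hemk1 at 11.7 and Kdm3a at 48.3, library 30 for the oligodendrocyte sum at 7552, and library 32 lowest for Slco1a4 at 45.9.

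The responses of 29 named genes differed between the tissues by the test of the difference itself in the joint fit. The kidney minus brain difference in log2 fold change was positive for Cbr2 (1.78), Etv4 (1.74), Aldh1b1 (1.60), Rundc3a (1.45), Rasl10b (1.24), Cbr1 (1.22), Gsta4 (1.22), Reep6 (1.09), Pbld1 (1.06), Pla2g7 (0.79), Gstp1 (0.76), Sv2a (0.68), Tspan9 (0.67), Asrgl1 (0.63), Gsto1 (0.54) and Fbxo44 (0.51). It was negative for Itih2 (-1.84), Lipo1 (-1.75), Col19a1 (-1.72), Dnah11 (-1.41), Slc35f1 (-1.31), Bcat1 (-1.28), Mroh7 (-1.09), Slc2a13 (-0.99), Nkain1 (-0.88), Arl4a (-0.59), Alcam (-0.58), Fam13c (-0.58) and Ints7 (-0.58).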

How the results depend on the processing

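The 8 genes Rundc3a, Lipo1, Aldh1b1, Cbr1, Gsta4, Pla2g7, Asrgl1 and Fbxo44 were called as different under every alternative and every leave-out run. The number of genes that differed, 74, was 39 with limma-voom and a weight per tissue (33 shared), 295 with DESeq2 (71 shared), 19 with separate fits, 27 with no filter, and 33 with the heart libraries in the fit (31 shared); it was 50 with limma-voom, 78 with at least 10 counts in 5 libraries and 53 with thinned counts. The mean response passed in 316 genes, and in 166, 876 and 153 with weighted limma-voom, DESeq2 and no filter, under which the alike rule gave 101, 302 and 78 genes in place of 167. The kidney test gave 50 genes, 380 with DESeq2 and 29 without libraries 35, 45 and 55. The brain test gave 9 genes, 2 with limma-voom with or without weights, 414 with DESeq2 and 1 without those libraries. The cause was not tested.

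When each library was left out in turn, the share of genes that differed (0.388%) was 0.157% to 0.77%. The number of mean responses called was 143 to 498, of alike genes 71 to 211, of kidney calls 17 to 112 and of brain calls 1 to 432. Median differences in response were -0.254 to 0.0288 for the organic ion transporters, -0.0650 to 0.00994 for acetyltransferases and bromodomain readers, -0.185 to -0.0565 for cholesterol synthesis, -0.361 to 0.0357 for REST targets and -0.152 to 0.146 for the circadian clock. In brain, the log2 change of the podocyte sum was 0.303 to 0.411, of endothelium 0.176 to 0.280, of neurons 0.111 to 0.181 and of reads without a gene 0.0827 to 0.205. The first 3 passed without brain Cmpd60 library 36 (adjusted p = 0.0390 by exact permutation). In the leave-outs, that adjustment covered the lists of 1 tissue, and in the main test those of both, so these adjusted p-values are not on the same footing. Reads without a gene passed without brain vehicle library 29, at an unadjusted p below 0.05. Differences near 0 changed sign, for Lama5 to 0.0159 and Spr to 0.0193 with thinned counts, and over the leave-outs Spr was -0.0977 to 0.0298, Ugt8a -0.0674 to 0.100, Ugt1a7c -0.00524 to 0.419 and Hdac2 -0.0774 to 0.00824.

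No paired analysis was possible because the library numbers are all different and the labels do not tell which libraries share a mouse. Depth limits genes near the floor of 3 counts, which is 0.119 CPM in the smallest library.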
